A study of Mus musculus with 6 samples.

Results

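The NR4A receptors and the inducible dual-specificity phosphatases were followed here as 9 named genes, Nr4a1, Nr4a2, Nr4a3, Dusp1, Dusp2, Dusp4, Dusp5, Dusp6 and Dusp10, among the 25759 genes of the deposited expression table. They were chosen by name with earlier results of these data known, and each was found in the table by its Ensembl identifier. The series compared adaptive regulatory T cells (aTreg) that lack the bone morphogenetic protein receptor BMPR1a with wild type (WT) aTreg, 3 libraries each. The BMPR1a-deficient cells came from BMPR/CD4cre mice, in which a Cre recombinase under Cd4 control acts in the T cell lineage, and the WT cells from normal B6 mice. Both groups were C57BL/6, aged 8 to 12 weeks, and carried a Foxp3-GFP reporter. Whether the WT mice carried Cre or altered Bmpr1a alleles is not given in the sources used here. The culture held unsorted lymph node and spleen cells for 3 days, with 10 ng/ml IL-2, 3 ng/ml TGF-beta and 2 µg/ml of the mitogen concanavalin A, before CD4+ Foxp3-GFP+ cells were sorted. Other cells of these organs were therefore present until the sort. No label ties a library to its own animal or culture. The p-values therefore cover only the spread among these libraries, and that spread may be technical. In bulk RNA, fewer cells expressing a gene and less RNA per cell cannot be told apart.

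The NR4A receptors are nuclear receptors that act as transcription factors without a known physiological ligand, and T cells switch them on within a short time of antigen receptor signalling. In regulatory T cells they are known to help keep Foxp3 expressed. Dual-specificity phosphatases of the MAP kinase phosphatase class remove the activating phosphates from both a threonine and a tyrosine of ERK, JNK and p38. Many of them are induced by the same kinases, so they act as feedback brakes, and their transcripts serve as a record of recent MAP kinase signalling.

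Of the 9 genes, 3 were higher in BMPR1a-deficient aTreg, namely Nr4a3, Dusp4 and Dusp5, and 0 were lower. The test was limma on log2(FPKM + 1) over all 13413 genes with a mean of at least 1 FPKM, with an adjusted p under 0.05 as the threshold. FPKM are fragment numbers divided by transcript length and library size. All 9 passed this filter on low values. Over all tested genes 0.746% were called higher and 0.321% lower. At an unadjusted p under 0.05, 6 members were higher and 0 lower, against 9.29% higher and 5.87% lower of all genes tested. The median log2 fold change was 0.47 over the 9 genes and 0.04 over all genes tested, and 8 of the 9 fold changes were positive, against 55.5% over all genes tested. In 5 of the 9, every BMPR1a-deficient library lay above every WT library, as it did for 15.9% of tested genes. The reverse order occurred in 0 of the 9 and in 10.4% of tested genes. Because the members were chosen with earlier results of these data known, these shares are no independent evidence that the 9 differ from other genes. The 3 calls depended on single libraries: with BMPR1a-deficient replicate 2 or 3, or any WT library, left out, 0 members passed. Without BMPR1a-deficient replicate 1, 3 members passed, Nr4a3, Dusp5 and Dusp10.

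**Figure D1:**
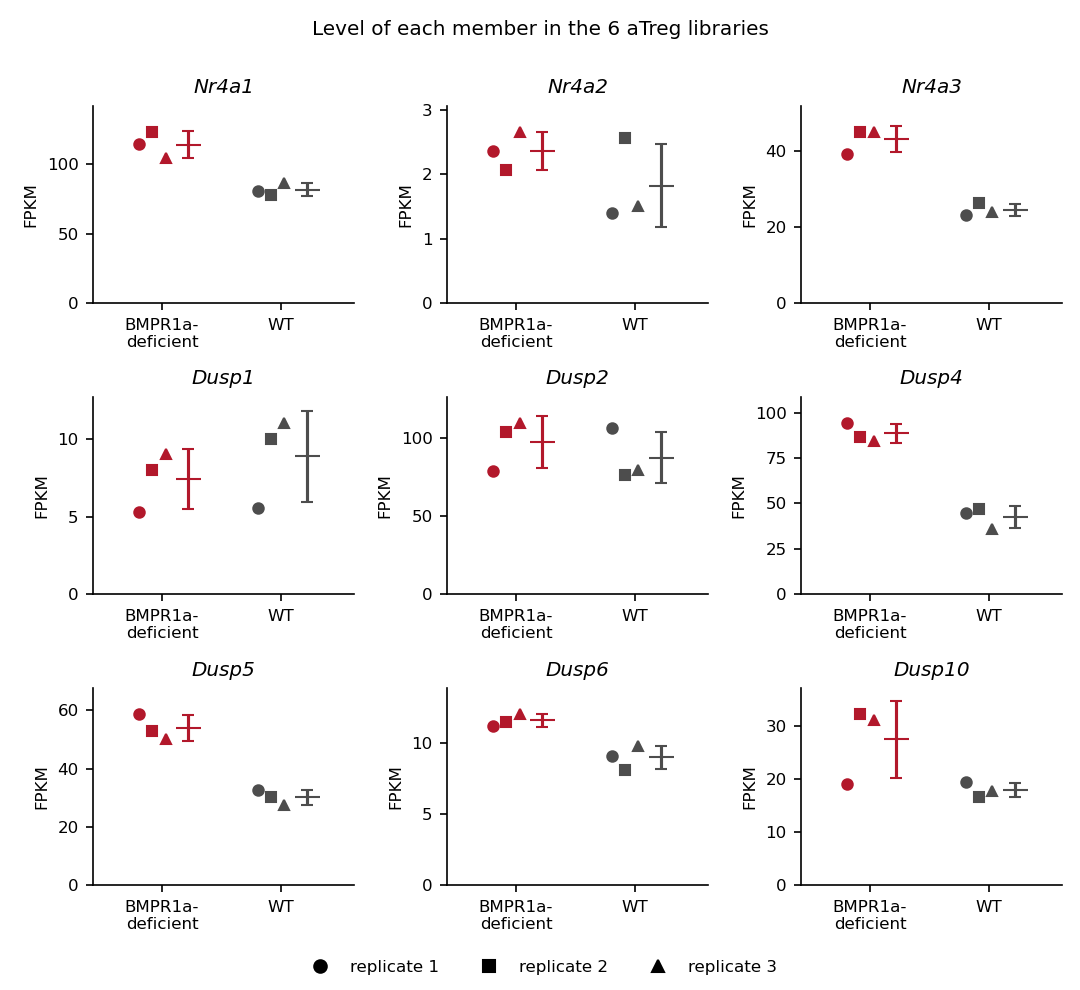
Level of each of the 9 genes in FPKM (y axis, from 0) in the 3 BMPR1a-deficient and the 3 WT libraries. Symbols mark the replicate number, and the bars beside them show the mean and SD. For Nr4a1, Nr4a3, Dusp4, Dusp5 and Dusp6 the groups do not overlap. For Dusp10, BMPR1a-deficient replicate 1 lies among the WT libraries.

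Nr4a3, which encodes the receptor NOR1 (ENSMUSG00000028341, chromosome 4, 48045153 to 48086447 in GRCm38), was at 39.2, 45.01 and 45.0 FPKM in the BMPR1a-deficient libraries and at 23.0, 26.3 and 23.9 FPKM in the WT libraries. The lowest BMPR1a-deficient value stood above the highest WT value. The mean was 43.1 ± 3.34 FPKM in BMPR1a-deficient aTreg and 24.4 ± 1.67 FPKM in WT (SD, n = 3 each), a ratio of 1.76. Nr4a3 rose by a log2 fold change of 0.79 (SE 0.104, limma adjusted p = 0.0380). Its 6 values gave p = 0.1 in an exact two-sided permutation test, and 3 libraries against 3 cannot give less. Its call held without BMPR1a-deficient replicate 1 (limma adjusted p = 0.0297) and was lost in the other 5 fits that left out a library (adjusted p between 0.113 and 0.198).

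Nr4a1, which encodes Nur77 (ENSMUSG00000023034, chromosome 15, 101254269 to 101274795), is widely used as a reporter of the strength of antigen receptor signalling. It was at 114.2, 123.4 and 104.3 FPKM in BMPR1a-deficient libraries and at 80.8, 77.8 and 86.4 FPKM in WT libraries. All BMPR1a-deficient values were again above all WT values, but the difference was smaller than that of Nr4a3 relative to its spread. The log2 fold change was 0.47 (95% interval 0.21 to 0.74), which missed the threshold (limma adjusted p = 0.130). Nr4a1 was the most abundant of the 3 receptors in every library.

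Nr4a2, which encodes Nurr1 (ENSMUSG00000026826, chromosome 2, 57106830 to 57124003), was the least abundant receptor. Its level was 2.36, 2.06 and 2.66 FPKM in BMPR1a-deficient libraries, against 1.39, 2.56 and 1.503 FPKM in WT libraries. WT replicate 2 lay among the BMPR1a-deficient libraries and the other WT libraries below them. Its fold change of 0.27 on the log2 scale had a 95% interval of -0.19 to 0.74 (limma adjusted p = 0.524), which holds both 0 and the fold change of Nr4a1. At the estimated depth about 150 to 350 fragments stood behind each Nr4a2 value, against 3950 to 9400 for Nr4a3.

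Since FPKM are scaled to length, the 3 receptors could be set against each other. Their summed level was 155.7, 170.4 and 152.0 FPKM in BMPR1a-deficient libraries and 105.3, 106.6 and 111.9 FPKM in WT libraries. Nr4a1 made up 68.6% to 73.3% of that sum in BMPR1a-deficient libraries and 73.0% to 77.2% in WT libraries. Nr4a3 made up 25.2%, 26.4% and 29.6% in BMPR1a-deficient libraries and 21.9%, 24.6% and 21.4% in WT libraries, without overlap. The ratio of Nr4a3 to Nr4a1 averaged 0.380 ± 0.0459 in BMPR1a-deficient and 0.2999 ± 0.0329 in WT aTreg (SD, n = 3 each, exact two-sided permutation p = 0.1, the smallest possible). With 3 libraries against 3, a difference between the receptors' responses cannot reach 0.05 in this test.

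Among the phosphatases, Dusp4 and Dusp5 rose. Dusp4 (MKP-2, ENSMUSG00000031530, chromosome 8, 34807297 to 34819894) acts in the nucleus on ERK and JNK. It was at 94.4, 86.6 and 84.5 FPKM in BMPR1a-deficient libraries and at 44.5, 47.2 and 36.0 FPKM in WT libraries. The groups were separated by more than the range within either. Its mean was 88.5 ± 5.24 FPKM in BMPR1a-deficient and 42.6 ± 5.85 FPKM in WT aTreg (SD, n = 3 each), a ratio of 2.08 and the largest of the 9. Dusp4 rose by a log2 fold change of 1.05 (SE 0.131, limma adjusted p = 0.0326). Leaving out any 1 of the 6 libraries ended the call, with a limma adjusted p between 0.0503 (without BMPR1a-deficient replicate 1) and 0.122.

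Dusp5 (ENSMUSG00000034765, chromosome 19, 53529109 to 53542431) is a nuclear phosphatase specific for ERK. Its level was 58.8, 52.9 and 50 FPKM in BMPR1a-deficient libraries and 32.6, 30.2 and 27.6 FPKM in WT libraries. The groups did not overlap, and the ratio of the means was 1.79. On the log2 scale Dusp5 rose by 0.82 ± 0.1103 (SE), with a limma adjusted p of 0.0403. The call held without BMPR1a-deficient replicate 1 (adjusted p = 0.0440). It was lost in the other 5 such fits (adjusted p between 0.0938 and 0.195) and with upper-quartile scaling (limma adjusted p = 0.0515). An annotated antisense noncoding gene overlaps the exons of Dusp5, and strand handling is not given in the sources used here, so reads of the pair cannot be told apart.

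Dusp6 (MKP-3, ENSMUSG00000019960, chromosome 10, 99263231 to 99267489), a cytoplasmic phosphatase of ERK, was lower in level and changed less. It was at 11.2, 11.5 and 12.0 FPKM in BMPR1a-deficient libraries and at 9.07, 8.11 and 9.73 FPKM in WT libraries. These groups did not overlap either, but the log2 fold change of 0.33 (95% interval 0.10 to 0.57) did not pass the threshold (limma adjusted p = 0.200).

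Dusp2 (PAC-1, ENSMUSG00000027368, chromosome 2, 127336159 to 127338376), a nuclear phosphatase of activated lymphocytes, was the most abundant phosphatase in WT aTreg. It was at 78.9, 104.1 and 110.0 FPKM in BMPR1a-deficient libraries and at 106.6, 76.8 and 79.5 FPKM in WT libraries. The groups overlapped throughout: BMPR1a-deficient replicate 1 was as low as WT replicates 2 and 3, and WT replicate 1 was as high as the other BMPR1a-deficient libraries. Its fold change was 0.16 on the log2 scale (95% interval -0.31 to 0.62, limma adjusted p = 0.701).

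Dusp1 (MKP-1, ENSMUSG00000024190, chromosome 17, 26505590 to 26562128), the immediate early member that acts mainly on p38 and JNK, was the only one of the 9 with a negative fold change. It was at 5.28, 7.98 and 9.02 FPKM in BMPR1a-deficient libraries and at 5.55, 10.01 and 11.04 FPKM in WT libraries. In each group replicate 1 was the lowest, and the ranges overlapped. Its log2 fold change of -0.21 had a wide 95% interval of -0.91 to 0.498 (limma adjusted p = 0.739). It stayed negative under all 19 alternatives, between -0.48 and -0.01, and passed the threshold under 0 of them. Exons of the coding gene Ergic1 on the opposite strand overlap those annotated for Dusp1.

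Dusp10 (MKP-5, ENSMUSG00000039384, chromosome 1, 184013302 to 184075636) acts on JNK and p38. It was at 19.1, 32.3 and 31.1 FPKM in BMPR1a-deficient libraries and at 19.4, 16.7 and 17.7 FPKM in WT libraries. BMPR1a-deficient replicates 2 and 3 were well above all WT libraries, while replicate 1 lay within the WT range. With all libraries its fold change was 0.56 on the log2 scale (limma adjusted p = 0.308). Once BMPR1a-deficient replicate 1 was left out it was 0.79 and passed the threshold (adjusted p = 0.0375). Over all alternatives the adjusted p ranged from 0.00883 to 0.637. That library also stands apart in its mitochondrial transcripts, as given further on.

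**Figure D2:**
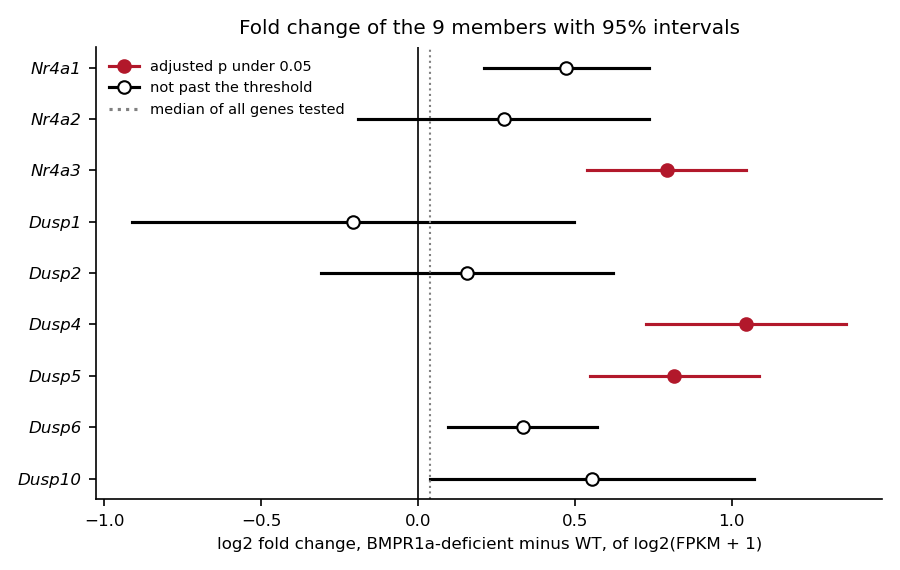
Log2 fold change of log2(FPKM + 1), BMPR1a-deficient minus WT (x axis), for each of the 9 genes, with 95% intervals from limma. Filled points passed an adjusted p of 0.05, and the dotted line is the median of all genes tested (0.04). Nr4a3, Dusp4 and Dusp5 are filled, at 0.79, 1.05 and 0.82, and Dusp1 alone lies below 0.

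The levels of the 9 genes kept much the same order in both groups. In BMPR1a-deficient aTreg the means ran from Nr4a1 (113.9 FPKM) through Dusp2 (97.7), Dusp4 (88.5), Dusp5 (53.9), Nr4a3 (43.1), Dusp10 (27.5), Dusp6 (11.55) and Dusp1 (7.43) to Nr4a2 (2.36 FPKM). There Nr4a1 and Dusp2, and Dusp2 and Dusp4, overlapped between libraries, and the other neighbours did not. In WT aTreg the means ran from Dusp2 (87.6 FPKM) through Nr4a1 (81.7), Dusp4 (42.6), Dusp5 (30.1), Nr4a3 (24.4), Dusp10 (17.9), Dusp6 (8.97) and Dusp1 (8.87) to Nr4a2 (1.82 FPKM). There Dusp2 and Nr4a1, and Dusp6 and Dusp1, overlapped.

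The make-up of the phosphatases differed between the groups while their sum was higher. The 6 phosphatases summed to 267.6, 295.3 and 296.6 FPKM in BMPR1a-deficient libraries and to 217.8, 188.9 and 181.6 FPKM in WT libraries. Dusp4 made up 28.5% to 35.3% of that sum in BMPR1a-deficient libraries and 19.8% to 25.0% in WT libraries. Dusp5 made up 16.9% to 21.96% in BMPR1a-deficient libraries and 14.98% to 15.97% in WT libraries. Dusp2 had a smaller share in BMPR1a-deficient libraries, 29.5% to 37.1%, than in WT libraries, 40.6% to 48.95%. Its own level averaged 97.7 FPKM in BMPR1a-deficient and 87.6 FPKM in WT aTreg, with overlapping groups. Shares of a sum depend on each other, so the smaller share of Dusp2 is not a separate decrease. The ratio of Dusp4 to Dusp2 averaged 0.932 ± 0.231 in BMPR1a-deficient and 0.495 ± 0.105 in WT aTreg (SD, n = 3 each). It was singled out after the values were seen and was not tested.

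**Figure D3:**
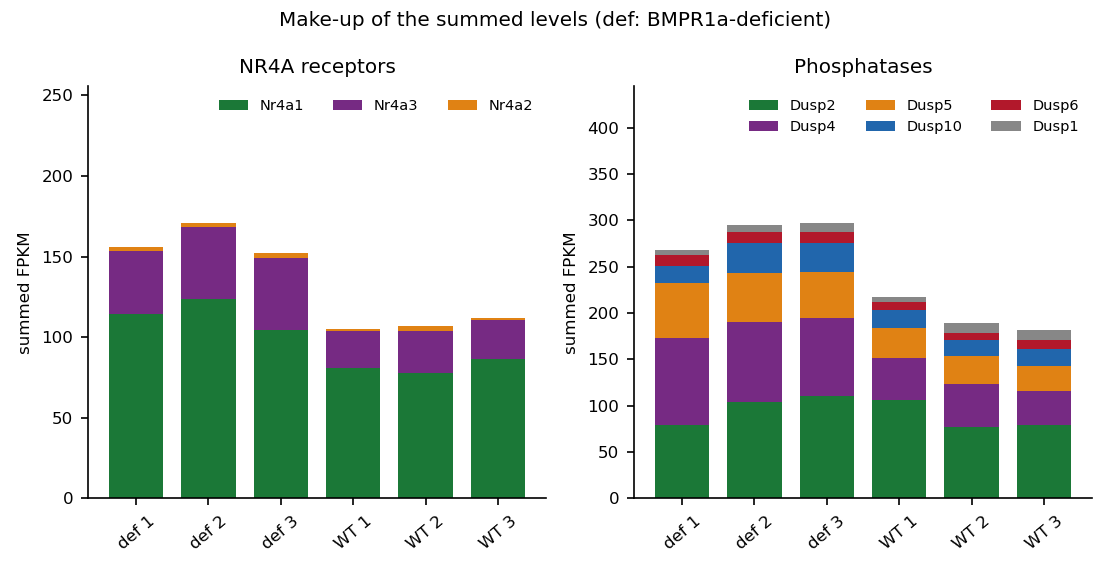
Summed FPKM (y axis, from 0) of the 3 NR4A receptors (left) and the 6 phosphatases (right) in each library, with the contribution of each gene in colour. Each sum is higher in every BMPR1a-deficient library (labelled def) than in any WT library. Nr4a1 fills most of the receptor bars, and the Dusp4 and Dusp5 parts are taller in the BMPR1a-deficient bars.

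Within groups, the members' deviations had no common direction. After each group's mean was subtracted, Pearson's r over the 6 libraries lay between -0.94 (Dusp1 with Dusp5) and 0.83 (Dusp2 with Dusp10) for the 36 pairs, and 14 of the 36 were positive. These points share their libraries, and each group leaves only a few free values, so r is a description. BMPR1a-deficient replicate 1 had the highest Dusp4 and Dusp5 and the lowest Dusp1 of all 6 libraries. Leaving out that library made the fold change of Nr4a3 0.86, that of Dusp4 0.999 and that of Dusp5 0.75.

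The promoters of the NR4A genes and Dusp1 are textbook targets of CREB, which binds cyclic AMP response elements (CRE), and Dusp5 is a target of the serum response factor SRF, which binds the CArG box. RefSeq promoters (GRCm38.p6, 250 bases before to 50 after the start) were at hand for 8 of the 9 genes, all but Dusp4. Motifs were searched on both strands: the CRE (TGACGTCA), its core (TGACG, which the CRE contains on each strand), the NR4A site NBRE (AAAGGTCA), the AP-1 site (TGANTCA), the EGR site (GCGNGGGCG), the NFAT site (TTTCC), SMAD sites (GTCTAGAC and CAGACA) and the CArG box. The CRE core was present in 6 of the 8 promoters, Nr4a1, Nr4a2, Nr4a3, Dusp1, Dusp2 and Dusp5, and in 20.8% of the 32851 promoters in that table. Nr4a1, Nr4a2 and Nr4a3 had 4 cores each. The CRE was in the Dusp1 promoter alone of the 8 (1.79% of all), and CArG boxes in that of Dusp5 alone (1.63% of all). The EGR site was in 3 of 8 (5.55% of all), the NFAT site in 4 of 8 (61.3% of all) and CAGACA in 4 of 8 (21.0% of all). The NBRE, the AP-1 site and GTCTAGAC were in 0 of 8, against 1.51%, 7.81% and 0.213% of all. The 8 promoters had a GC content of 57.3% to 81.7%, against a median of 52.7% over all promoters, and the motifs differ in GC content. A match of letters is a description and not evidence of binding.

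The sequences below show the CRE cores of 2 receptor genes, the CRE of Dusp1 and the paired CArG boxes of Dusp5. A link between these motifs and the fold changes was not tested. Capitals mark CRE, CRE core and CArG matches. Each sequence runs 5′ to 3′ on the gene's strand from base -250, counted from the RefSeq start, and ends before the first exon annotated there by GENCODE. They lie at chr15:101266596-101266845 (Nr4a1, plus strand), chr4:48045055-48045152 (Nr4a3, plus strand), chr17:26508520-26508722 (Dusp1, minus strand) and chr19:53528895-53529108 (Dusp5, plus strand).
Nr4a1: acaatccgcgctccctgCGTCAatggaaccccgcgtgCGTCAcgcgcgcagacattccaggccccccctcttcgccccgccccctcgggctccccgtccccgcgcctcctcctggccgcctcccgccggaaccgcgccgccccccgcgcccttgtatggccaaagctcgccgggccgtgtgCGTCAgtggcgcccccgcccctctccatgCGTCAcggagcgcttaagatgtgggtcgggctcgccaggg
Nr4a3: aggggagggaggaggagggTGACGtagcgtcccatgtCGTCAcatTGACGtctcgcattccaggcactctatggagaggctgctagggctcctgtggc
Dusp1: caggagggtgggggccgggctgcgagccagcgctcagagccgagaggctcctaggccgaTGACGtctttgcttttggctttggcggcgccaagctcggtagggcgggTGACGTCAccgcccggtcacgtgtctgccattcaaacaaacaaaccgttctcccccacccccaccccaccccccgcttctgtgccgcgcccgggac
Dusp5: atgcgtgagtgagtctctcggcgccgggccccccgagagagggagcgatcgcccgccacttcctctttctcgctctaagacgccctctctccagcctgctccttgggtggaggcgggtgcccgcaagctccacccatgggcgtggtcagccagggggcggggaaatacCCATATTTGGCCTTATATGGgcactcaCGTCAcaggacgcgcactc
The CArG boxes of Dusp5 lie side by side at bases -82 to -73 and -72 to -63. In Nr4a3 the cores lie at -231, -213, -205 and -147 (first base), of which the last is past the end of the printed stretch.

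The other genes of these pathways were read from 10 lists with 117 entries, of which 90 passed the filter. In limma, with adjustment over all genes, 2 of the 90 were higher, Ikzf4 and Pdcd1, and 0 were lower. Over all tested genes these shares were 0.746% and 0.321%. The rest are given as values.

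Of the remaining MAP kinase phosphatases and a related pseudophosphatase gene, 2 of 5 passed the filter, and 0 passed the threshold (limma). At an unadjusted p under 0.05, 1 was higher and 1 lower. Dusp7, which encodes a cytoplasmic ERK phosphatase closely related to Dusp6, was at 2.27, 3.73 and 2.55 FPKM in BMPR1a-deficient libraries and at 6.75, 6.28 and 7.04 FPKM in WT libraries. Its groups did not overlap, in the direction opposite to Dusp4 and Dusp5. Its fold change of -1.02 on the log2 scale missed the threshold (SE 0.160, limma adjusted p = 0.0573). Over the alternatives the adjusted p ranged from 0.0186, among protein-coding genes alone, to 0.264. Dusp16, which like Dusp10 acts on JNK and p38, was at 2.30 ± 0.310 FPKM in BMPR1a-deficient and 1.52 ± 0.173 FPKM in WT aTreg (SD, n = 3 each, limma adjusted p = 0.272).

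Of 14 atypical dual-specificity phosphatases 6 were tested and 0 passed in limma, with 1 higher and 1 lower at an unadjusted p under 0.05. Dusp11, which acts on RNA, was at 51.7 ± 5.94 FPKM in BMPR1a-deficient and 68.4 ± 2.14 FPKM in WT aTreg (SD, n = 3 each, limma adjusted p = 0.194). Dusp12 was at 4.84 ± 0.495 FPKM in BMPR1a-deficient and 3.24 ± 0.275 FPKM in WT aTreg (limma adjusted p = 0.1503).

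Nr4a1 and Nr4a2 can pair with the retinoid X receptors. Of the 3 RXR genes, 2 were tested and 0 passed in limma, with 1 higher at an unadjusted p under 0.05. Rxra was at 9.24, 7.96 and 9.49 FPKM in BMPR1a-deficient libraries and at 2.64, 5.11 and 2.96 FPKM in WT libraries. Its groups did not overlap, and the log2 fold change was 1.151 (SE 0.213, limma adjusted p = 0.0807). Over the alternatives the limma adjusted p of Rxra ranged from 0.0145, with sample weights, to 0.330, without WT replicate 3. Among protein-coding genes alone it was 0.0295. Rxrb, the more abundant partner, was at 39.3 ± 4.16 FPKM in BMPR1a-deficient and 42.4 ± 0.905 FPKM in WT aTreg (limma adjusted p = 0.614).

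The kinases on which these phosphatases act showed 0 calls in limma among 7 tested MAP kinases, with 1 lower at an unadjusted p under 0.05. Mapk11, which encodes p38 beta, was at 6.81 ± 1.78 FPKM in BMPR1a-deficient and 10.56 ± 0.951 FPKM in WT aTreg (SD, n = 3 each, limma adjusted p = 0.214). Without BMPR1a-deficient replicate 1 it passed the threshold (adjusted p = 0.0474, range over the alternatives 0.00883 to 0.567). Mapk3, which encodes ERK1, was at 34.1 ± 3.11 FPKM in BMPR1a-deficient and 29.2 ± 2.72 FPKM in WT aTreg (limma adjusted p = 0.422). Of 20 tested upstream kinases and Ras activators 0 passed in limma, with 2 higher and 1 lower at an unadjusted p under 0.05. Map3k7, which encodes TAK1, was at 39.7 ± 3.84 FPKM in BMPR1a-deficient and 29.1 ± 3.28 FPKM in WT aTreg, with a limma adjusted p of 0.194. Map3k5, which encodes ASK1, was at 12.65 ± 0.345 FPKM in BMPR1a-deficient and 16.7 ± 0.761 FPKM in WT aTreg (limma adjusted p = 0.117).

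Feedback inhibitors of the Sprouty and Spred families are induced by ERK much as Dusp6 is. The list of 8 also holds Errfi1, a gene of neither family. Of the 8, 4 were tested, Errfi1 among them, with 0 past the threshold in limma and 0 at an unadjusted p under 0.05. Spry1 was at 7.002 ± 2.66 FPKM in BMPR1a-deficient and 3.89 ± 1.40 FPKM in WT aTreg (SD, n = 3 each, limma adjusted p = 0.342). Spred1 was at 2.88 ± 0.243 FPKM in BMPR1a-deficient and 2.17 ± 0.414 FPKM in WT aTreg (limma adjusted p = 0.377).

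Among the ERK-dependent and immediate early genes the fold changes were split between both directions. Of 22 listed, 18 were tested, and 9 had a positive and 9 a negative fold change, with a median of 0.02. In limma 0 passed the threshold, and at an unadjusted p under 0.05, 3 were higher and 2 lower. Egr2, a zinc finger transcription factor induced by T cell receptor signalling, was at 10.98, 12.1 and 10.5 FPKM in BMPR1a-deficient libraries and at 6.03, 3.39 and 5.11 FPKM in WT libraries. The groups did not overlap (log2 fold change 1.09, SE 0.187, limma adjusted p = 0.0691). Phlda1 was at 12.1 ± 1.85 FPKM in BMPR1a-deficient and 6.16 ± 1.41 FPKM in WT aTreg (SD, n = 3 each, limma adjusted p = 0.0986). Its groups did not overlap either. Both genes passed the threshold when protein-coding genes alone were tested. Over all alternatives the limma adjusted p ranged from 0.0130 to 0.266 for Egr2 and from 0.0426 to 0.355 for Phlda1.

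Of 8 tested NFAT, calcineurin and Rcan genes 0 passed in limma, with 1 higher at an unadjusted p under 0.05. This was Rcan1, an NFAT-induced inhibitor of calcineurin, at 5.09 ± 0.520 FPKM in BMPR1a-deficient and 3.76 ± 0.292 FPKM in WT aTreg (SD, n = 3 each, limma adjusted p = 0.236). Rcan3 was at 42.0 ± 8.63 FPKM in BMPR1a-deficient and 32.5 ± 1.74 FPKM in WT aTreg (adjusted p = 0.374). Of 12 tested genes of the CREB pathway 0 passed in limma, with 3 lower at an unadjusted p under 0.05. Crtc3, a coactivator of CREB, was at 13.6 ± 1.44 FPKM in BMPR1a-deficient and 18.6 ± 1.88 FPKM in WT aTreg (limma adjusted p = 0.188). Pde4b, which encodes an enzyme that breaks down cyclic AMP, was at 15.7 ± 3.24 FPKM in BMPR1a-deficient and 23.1 ± 3.43 FPKM in WT aTreg (adjusted p = 0.276).

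Of 11 tested genes linked to NR4A function in T cells, 2 were higher and 0 lower in limma, against 0.746% and 0.321% of all genes tested. The list was chosen with earlier results of these data known, so its calls are no independent evidence of a link to NR4A. Ikzf4, which encodes the Foxp3 partner Eos, had a log2 fold change of 1.28 (limma adjusted p = 0.0338). Pdcd1, which encodes PD-1, had one of 1.496 (adjusted p = 0.0450). Without the filter on low values these adjusted p were 0.0523 and 0.0736. The median fold change of the list was 0.38, with 8 of 11 positive, against 0.04 and 55.5% over all genes tested. With 1 library left out, each of the 2 calls held in 1 of 6 cases, Ikzf4 without WT replicate 1 (adjusted p = 0.0337) and Pdcd1 without BMPR1a-deficient replicate 1 (adjusted p = 0.0398). With the replicate number as a block both calls were lost (limma adjusted p = 0.130 for Ikzf4 and 0.149 for Pdcd1).

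**Figure D4:**
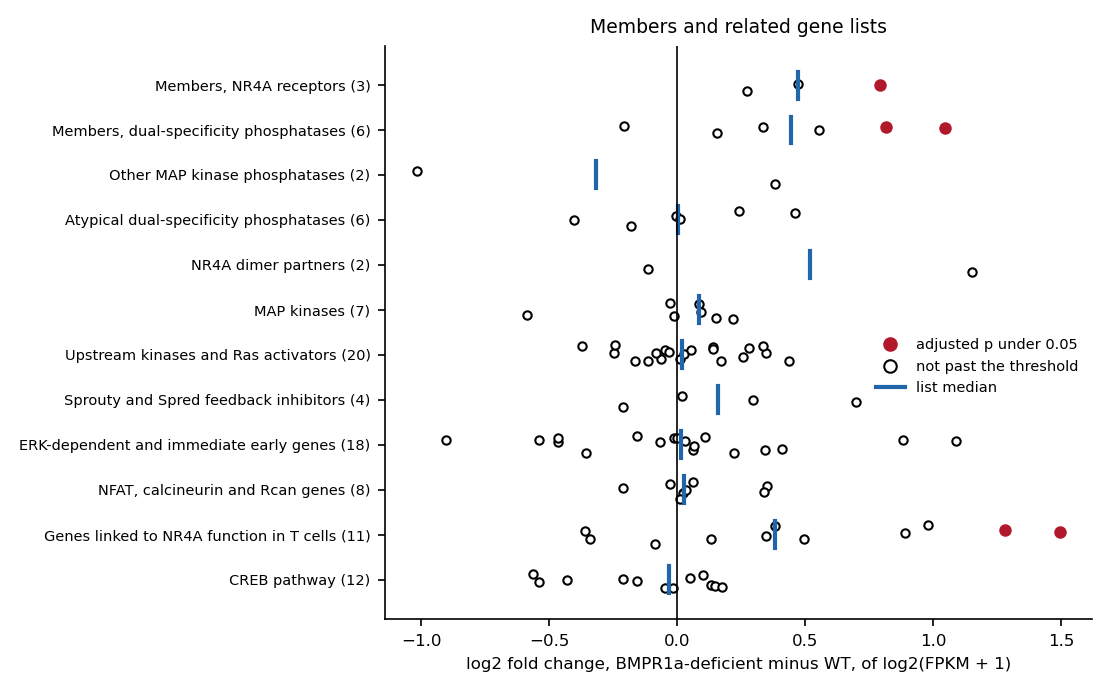
Log2 fold change of log2(FPKM + 1), BMPR1a-deficient minus WT (x axis), for each tested gene of the members and the related lists (rows, number tested in brackets). Filled points passed an adjusted p of 0.05 and blue bars mark list medians. Filled points appear in the rows of the receptors, the phosphatases and the genes linked to NR4A function, while the immediate early genes spread to both sides of 0.

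Quality and purity measures bear on these values. The estimated depth was about 32000000 to 36500000 fragments in BMPR1a-deficient libraries and 30000000 to 38000000 in WT libraries. Bmpr1a, the deleted gene, was at 0.439, 0.720 and 0.691 FPKM in BMPR1a-deficient libraries and at 1.39, 2.34 and 1.31 FPKM in WT libraries, and its highest BMPR1a-deficient value was below its lowest WT value (limma adjusted p = 0.184). The sorted type's defining markers were present, with Cd4 at 378.5 ± 49.4 FPKM in BMPR1a-deficient and 343.1 ± 14.9 FPKM in WT aTreg. Foxp3 was at 73.4 ± 22.8 FPKM in BMPR1a-deficient and 55.9 ± 6.43 FPKM in WT aTreg. Of 9 listed markers of that type, 5 had a positive and 4 a negative fold change. In 2 every BMPR1a-deficient library lay above every WT library (15.9% of tested genes), and in 2 below (10.4%). Cd3e, named after its values were seen, was at 118.1, 258.6 and 251.8 FPKM in BMPR1a-deficient and 193.7 to 225.1 FPKM in WT libraries. The 15 mitochondrially encoded transcripts summed to 5632 FPKM in BMPR1a-deficient replicate 1, to 45560 and 45570 FPKM in replicates 2 and 3 and to 51630 to 54810 FPKM in WT. Summed markers of myeloid and dendritic cells (12 genes, most abundant by mean Lyz2) were at 20.8, 99.7 and 230.0 FPKM in BMPR1a-deficient and 146.0, 26.8 and 56.3 FPKM in WT libraries. Of the 8 tested, 3 had a positive and 5 a negative fold change, and 0 passed the threshold in limma. Among the listed markers the neutrophil genes S100a8 and S100a9 differed most by group mean. S100a8 was at 3.99, 24.8 and 67.1 FPKM in BMPR1a-deficient libraries and at 13.99, 0.603 and 3.12 FPKM in WT libraries. S100a9 was at 2.54, 23.2 and 60.6 FPKM in BMPR1a-deficient libraries and at 10.16, 0.469 and 0.933 FPKM in WT libraries. The groups overlapped for both genes (limma adjusted p = 0.436 for S100a8 and 0.406 for S100a9). Summed markers of B cells (8 genes, most abundant Cd79b) were at 41.8 to 55.95 FPKM in BMPR1a-deficient and 28.0 to 56.5 FPKM in WT libraries. All 7 tested had a positive fold change, with a median of 0.22 on the log2 scale. In limma 0 passed the threshold and 1 was higher at an unadjusted p under 0.05. In 1 every BMPR1a-deficient library lay above every WT library. Summed markers of CD8 T and NK cells (8 genes, most abundant Cd8b1) were at 41.1 to 74.6 FPKM in BMPR1a-deficient and 40.1 to 47.9 FPKM in WT libraries. Of the 3 tested, 2 had a positive and 1 a negative log2 fold change, the latter of -0.49. Within that list Cd8a was at 13.8, 17.2 and 29.1 FPKM in BMPR1a-deficient libraries and at 11.7, 9.56 and 8.80 FPKM in WT libraries, without overlap (unadjusted p = 0.0188, limma adjusted p = 0.236). Klrb1c, an NK cell gene below the filter, was at 0.598 to 0.760 FPKM in BMPR1a-deficient libraries and at 0.0692 to 0.126 FPKM in WT libraries, also without overlap. Ncr1, which defines NK cells, was at 0 in 5 of the 6 libraries. These 5 genes of the myeloid and CD8 T and NK lists were named after their values were seen. Markers of erythroid cells and platelets (9 genes, most abundant Itga2b) summed to 0.820 to 3.37 FPKM in BMPR1a-deficient and 1.19 to 2.03 FPKM in WT libraries. None of the listed markers was at 0 in every library. The 10 heat shock and handling genes (most abundant Hspa8) summed to 1726 to 2083 FPKM in BMPR1a-deficient and 1494 to 1838 FPKM in WT libraries, with 0 of 7 tested past the threshold in limma and 0 at an unadjusted p under 0.05. All 7 had a positive fold change, with a median of 0.18 on the log2 scale, against 55.5% positive and a median of 0.04 over all genes tested. In 2 of the 7, every BMPR1a-deficient library lay above every WT library (15.9% of tested genes). NR4A and phosphatase genes are also expressed by these other cells and respond to handling, and the part of any of these measures in the values above was not tested.

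**Figure D5:**
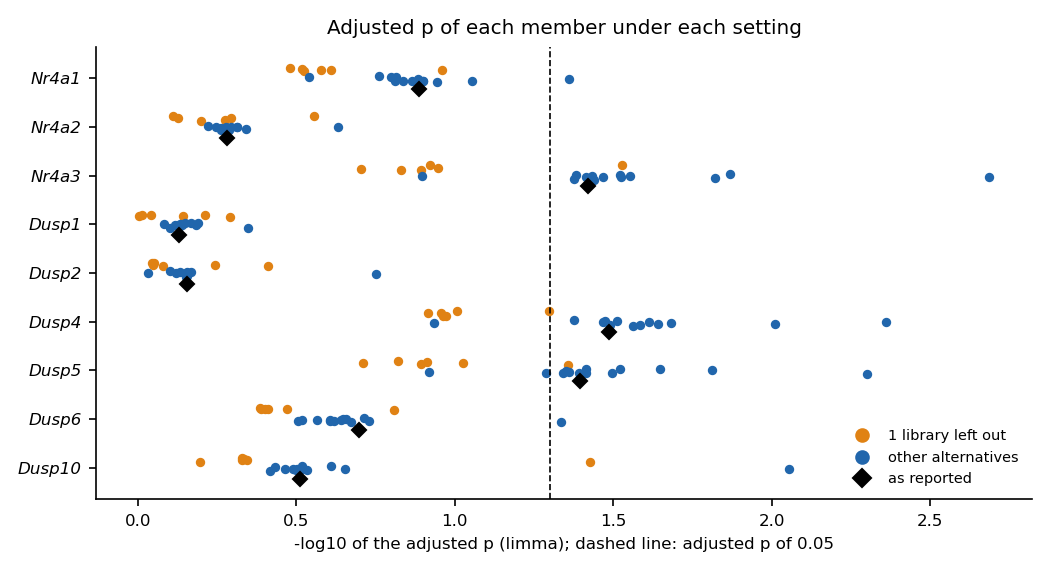
Minus log10 of the limma adjusted p (x axis) of each of the 9 genes, as reported (diamonds), in the 6 fits that left out a library (orange) and under 13 other alternatives (blue). The dashed line is an adjusted p of 0.05. Nr4a3, Dusp4 and Dusp5 lie to the right of the line as reported, and most of their orange points lie to its left.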

How the data were processed

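The deposited table gives FPKM made by the authors, 1 column per library. TopHat2, Cufflinks and Cuffdiff, and the build GRCm38.p4, are named per the submitters' processing notes. The sources used here do not state versions, strand handling, annotation or any scaling between libraries. No count model was used, since FPKM are not counts. Of 25759 identifiers, 24876 (96.6%) had a symbol in GENCODE M21 (GRCm38), and 0 columns were left unmapped.

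Genes with a mean of at least 1 FPKM were tested with limma 3.58.1 (R 4.3.3) on log2(FPKM + 1), eBayes with a trend, two-sided, Benjamini-Hochberg over all 13413 genes at 0.05. Fold changes are on that scale, BMPR1a-deficient minus WT, and understate changes of low genes. The fit was also run on simulated data with independent normal noise and known changes. That simulation held no outlying library and no shared library effect, so it does not measure the errors in these data. Single values had exact permutation tests (SciPy 1.17.1). Depth came from 3433 genes with 1 transcript, where the densest low value of FPKM times length stands for about 1 fragment, and is approximate.

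The members, the 20 gene lists and the alternatives were chosen with earlier results of these data known. Named are the 9 members, Bmpr1a, up to 4 called genes of each related list by adjusted p or up to 2 by smallest p where none was called, and the most abundant marker of each other cell type. Dusp23 was named after its values were seen. Dusp21 and Spry3 were not found in the table. Promoters are from RefSeq, with several per gene where RefSeq has several. The genes whose levels were most like Nr4a3 are not reported here. Protein sequences were not used here.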

Additional observations from a re-analysis of the deposited data

How the results depend on the processing

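Each of the 9 genes kept the sign of its fold change under all 19 alternatives, except that Nr4a2 was not tested at a mean of at least 5 FPKM. Of 170 comparisons with an alternative, 146 left a member on its side of the threshold, 20 lost a call and 4 gained one. Nr4a3, Dusp4 and Dusp5 were the members called with other pseudocounts, filters, quantile normalization, rescaling to nuclear coding genes, GC correction and other eBayes settings, and upper-quartile scaling lost Dusp5. Sample weights gave 6 of 9 members, adding Nr4a1, Dusp6 and Dusp10, among 1240 genes called, against 143. The cause was not tested. Testing protein-coding genes alone gave 296 genes. Leaving out 1 library gave 14 to 210 genes and 0 to 3 members, with 210 genes and Dusp10, Dusp5 and Nr4a3 without BMPR1a-deficient replicate 1. Of the genes called, 69.9% were higher, against 55.7% with quantile normalization.

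The labels number the replicates in both groups. Same-numbered libraries deviated together only weakly (r = 0.0103, 0.0645 and 0.0518), and not every library correlated best with its own number. So few libraries cannot settle whether the numbers pair them, and the main fit left the numbers out. With a replicate block, which uses residual degrees of freedom, 10 genes and 0 members were called (limma adjusted p = 0.127 for Nr4a3, 0.116 for Dusp4 and 0.120 for Dusp5). Depth limits Nr4a2 and Dusp1 most, at about 150 and 390 fragments in their lowest libraries. FPKM cannot show splicing or protein levels.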

Other observations

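Dusp23, an atypical dual-specificity phosphatase gene, missed the filter with a mean of 0.811 FPKM. It was at 0.366, 0.368 and 0.461 FPKM in BMPR1a-deficient libraries and at 1.30, 1.21 and 1.17 FPKM in WT libraries. The groups did not overlap, and the mean in BMPR1a-deficient aTreg was 0.326 of that in WT. In the fit with no filter on low values, over 24025 genes of which 0.658% were called, its log2 fold change was -0.67 (SE 0.0545, limma adjusted p = 0.0252).

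The protein-coding genes whose levels followed Nr4a1 and Nr4a2 most closely across the 6 libraries, once each group's mean was subtracted, were, for Nr4a1, Nckipsd, Gm3739 and Lrrc29 (Pearson's r of 0.98, 0.98 and 0.97). For Nr4a2 they were Agpat5, Ugdh and Mrm1 (0.99 each). They are the best of many genes over few free values in shared libraries, so such r are a description. The short lists held 0 of the other members. With only 3 genes listed per receptor out of 10362 tested protein-coding genes, that absence carries no weight.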
